A study of Bos indicus with 6 samples.

Results

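The genes described here are glycosyltransferases, the enzymes that start, branch, lengthen and cap the sugar chains of glycoproteins and glycolipids at the cell surface. They were chosen by name alone, as the genes of the isthmus expression table whose symbol (the part of the row name behind the gene identifier) starts with FUT, ST3GAL, ST8SIA, B3GNT, B4GALT, B3GALT, GALNT, GCNT or MGAT and a digit, or with ST6GAL. This gave 69 of 24616 genes, of which 19971 had a symbol. They were 13 GALNT, 5 GCNT, 8 MGAT, 7 B4GALT, 5 B3GALT, 8 B3GNT, 8 FUT, 3 ST3GAL, 2 ST6GAL, 4 ST6GALNAC and 6 ST8SIA genes.

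The tissue was the isthmus, the part of the oviduct nearest the uterus, from 6 multiparous Nelore cows (Bos indicus) with 1 library each. All 6 cows were presynchronized and then received an intravaginal progesterone device with estradiol benzoate, a prostaglandin F analog (PGF) at device removal and again some hours later, and a GnRH agonist that induced ovulation. In the LF/LCL group (large follicle and large corpus luteum, cows 617, 79 and 527) PGF was also given at insertion and the device came out 42 h before GnRH, whereas in the SF/SCL group (small follicle and small corpus luteum, cows 856, 489215 and 97) it came out 30 h before GnRH. Pieces of the full oviduct wall were collected on day 4, and the study had picked the sequenced cows as the top of its LF/LCL ranking and the bottom of its SF/SCL ranking, so the groups are extremes of a ranking and not a random draw.

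Cell surface glycans are assembled in the endoplasmic reticulum and the Golgi by enzymes that each add a single kind of sugar in a single linkage. Mucin-type O-glycans start with a GalNAc on serine or threonine, N-glycans are trimmed and then branched with GlcNAc, and both are extended with galactose and GlcNAc and finished with fucose or sialic acid. In the oviduct such glycans coat the cilia and the secreted glycoproteins, and in mammals the isthmus is known as a place where sperm are held through sugars on the epithelial surface.

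Summed over all genes, each library had 23899117 to 34193164 counted reads, and the glycosyltransferase genes took 0.158% to 0.233% of them. The study gives the same totals as uniquely mapped reads, and its raw reads were more. Below, all reads of a library means these counted reads. All values are normalized counts, that is reads divided by the size factor of the library, and levels are compared between cows and not between genes because transcript length was not taken into account. In each list of values the cows stand in the order 617, 79 and 527 for LF/LCL and 856, 489215 and 97 for SF/SCL. SF/SCL cow 489215 stood apart from the other libraries. It was the highest or the lowest of the 6 in 72.4% of the 15387 genes tested, and over these genes the residual SD on the log2 scale had a median of 0.435 with it and of 0.184 without it. Log2 fold changes that it moves by over 1.5 times, or whose sign it turns, are given with and without this cow for many of the genes described, but not for all. Those not given both ways below include MGAT1 (0.38 with this cow and 0.13 without it), B3GNT2 (-0.23 and -0.48) and B3GNT6 (-1.06 and -0.22). They also include ST6GALNAC6 (0.48 and 0.99), ST8SIA2 (-1.48 and -0.46) and ST8SIA5 (0.43 and 1.15). The numbers of cows carry no pairing, and no batch was named.

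Markers of the epithelium and of the muscle wall were present in every library and moved with the groups or with cow 489215. Summed over the 11 markers of epithelium in general, which were all tested, the normalized counts were 33919 to 51057 in LF/LCL and 59449 to 80679 in SF/SCL. Their log2 fold changes were above 0 in 10 of 11, against 48.6% of all genes tested. The 13 markers of ciliated epithelium found summed to 37214 to 46173 in LF/LCL, to 64848 and 71271 in SF/SCL cows 856 and 97, and to 34038 in cow 489215, with PIFO listed at 0 in all libraries. The 7 markers of secretory epithelium found summed to 13921 to 33790.3 in LF/LCL, to 302015 and 359668 in cows 856 and 97, and to 39718.5 in cow 489215. Most of this gap came from OVGP1, the oviductal glycoprotein, at 287 to 1949.9 in LF/LCL, 271794 and 325158 in cows 856 and 97 and 729.6 in cow 489215, while WFDC2 and MUC1 of the same list were highest in cow 489215, at 29355 and 6421, and PAX8 was lowest in it, at 469. The 9 smooth muscle markers summed to 808563 to 926324 in LF/LCL, to 375799 and 436809 in cows 856 and 97, and to 1275160 in cow 489215. Summed fibroblast markers (8 of 8 tested) were 103139 to 135366 in LF/LCL and 65746 to 98398 in SF/SCL. The endothelial markers (7 tested) summed to 13424 to 17288 in LF/LCL and 11224 to 16609 in SF/SCL, and the leukocyte markers (8 tested) to 4883 to 6444 in LF/LCL and 4355 to 8222 in SF/SCL, both with overlap. The 5 mesothelial markers found, of which 1 was tested, summed to 1517 to 2137 in LF/LCL, to 8683 and 8650 in cows 856 and 97, and to 1199.6 in cow 489215. Most of the sum in cows 856 and 97 was WT1, at 8611 and 7984. LRRN4 ran the other way, at 175 to 412 in LF/LCL and 3.80 to 16.3 in SF/SCL. So did BNC1, the marker tested, at 68.0 to 97.6 in LF/LCL and 16.0 to 23.5 in SF/SCL. UPK3B and CALB2 overlapped between the groups. In whole tissue, more cells of a type and more RNA per cell cannot be told apart, and the part that these shifts play in the values below was not tested.

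Of the 69 glycosyltransferase genes, 60 passed the filter of a mean above 5 and above the SD over the 6 libraries and were tested, and the other 9 are described further down. With limma and Benjamini-Hochberg adjustment over all genes tested, 0 of the 60 differed between the groups at an adjusted p under 0.05, and the same was true of 0.0% of all 15387 genes. The smallest adjusted p among the members was 0.367 in limma. At an unadjusted p under 0.05, limma gave 7 of the 60 genes against 8.66% of all genes, 4 with higher values in SF/SCL (background 4.19%) and 3 with higher values in LF/LCL (background 4.48%). The edgeR quasi-likelihood test on the recovered reads also called 0 genes and gave 7 at an unadjusted p under 0.05 (background 8.7%). DESeq2 called 2 genes, MGAT3 and B3GNT8 (background 2.66%). Among the 60 genes 28 had a log2 fold change (SF/SCL over LF/LCL, on log2 of the normalized count + 1) above 0, against 48.6% of all genes, and the median log2 fold change was -0.09 against -0.02 over all genes. The shares of members called were thus near those of the table as a whole.

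**Figure D1:**
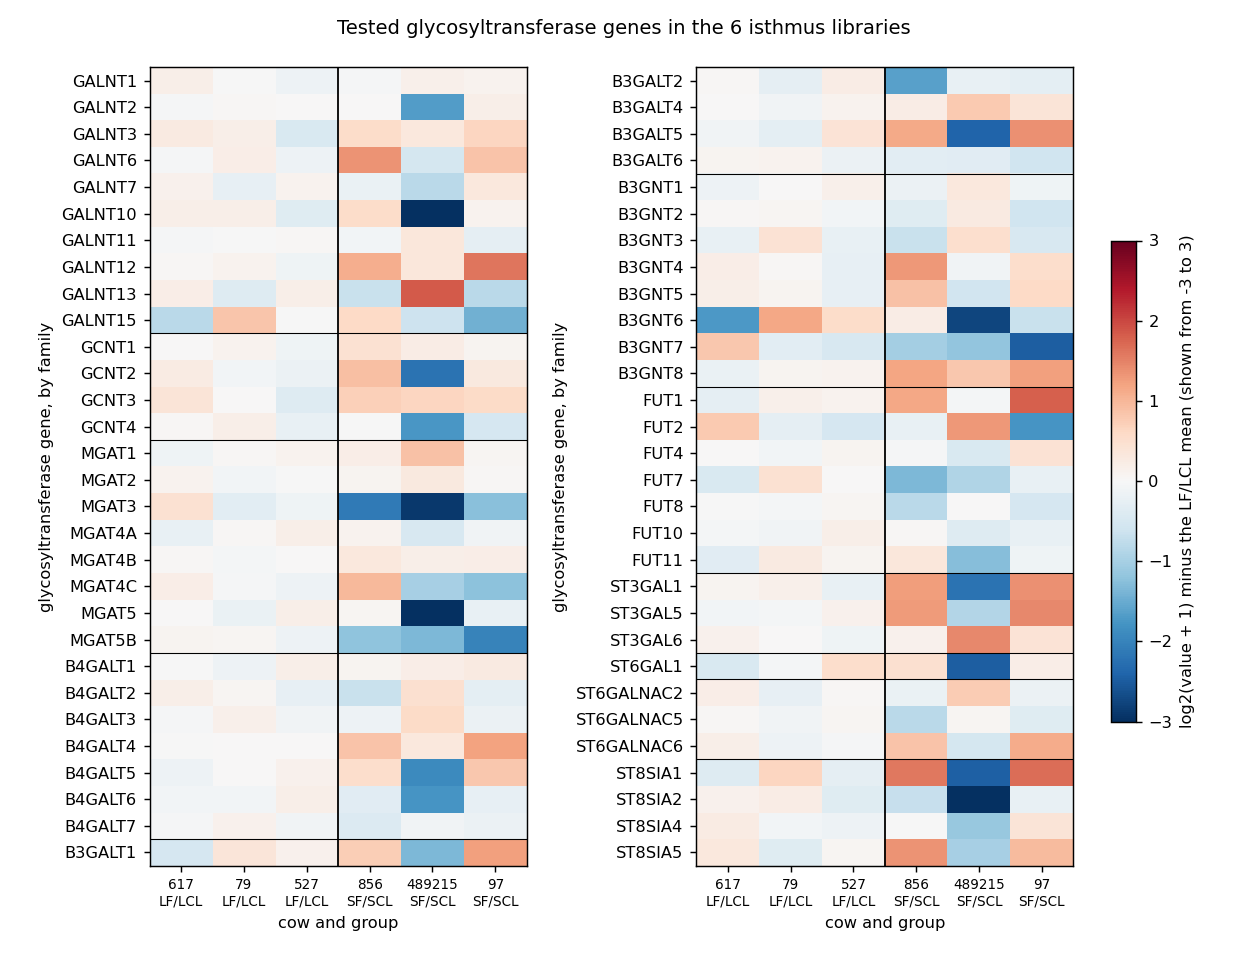
Each row is 1 of the 60 tested glycosyltransferase genes, grouped by family, and each column is 1 cow. The colour is log2(normalized count + 1) minus the mean of the 3 LF/LCL cows, with colours ending at -3 and 3. Cow 489215 carries most of the dark blue cells, among them GALNT10, MGAT5 and ST8SIA2, while MGAT3 and MGAT5B are blue in all 3 SF/SCL cows.

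The values of the 3 LF/LCL cows and the 3 SF/SCL cows did not overlap in 14 of the 60 genes, against 18.1% of all genes tested. In 8 of them all SF/SCL cows were higher (background 9.51%): GALNT3, GALNT12, GCNT3, MGAT4B, B4GALT4, B3GALT4, B3GNT8 and ST3GAL6. In 6 of them all LF/LCL cows were higher (background 8.6%): MGAT3, MGAT5B, B4GALT6, B4GALT7, B3GALT6 and B3GNT7. The first count depended on the scaling, since the size factor of cow 489215 is low for its number of reads. As shares of all reads of the library, 3 genes were higher in all SF/SCL cows (background 6.47%), ST3GAL6, B3GNT8 and B3GALT4, so that the groups then overlapped in GALNT3, GALNT12, GCNT3, MGAT4B and B4GALT4, and 9 were higher in all LF/LCL cows (background 11.0%), the 6 above with B3GNT2, FUT8 and ST6GALNAC5. The 7 genes with an unadjusted p under 0.05 in limma were all among these 14.

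**Figure D2:**
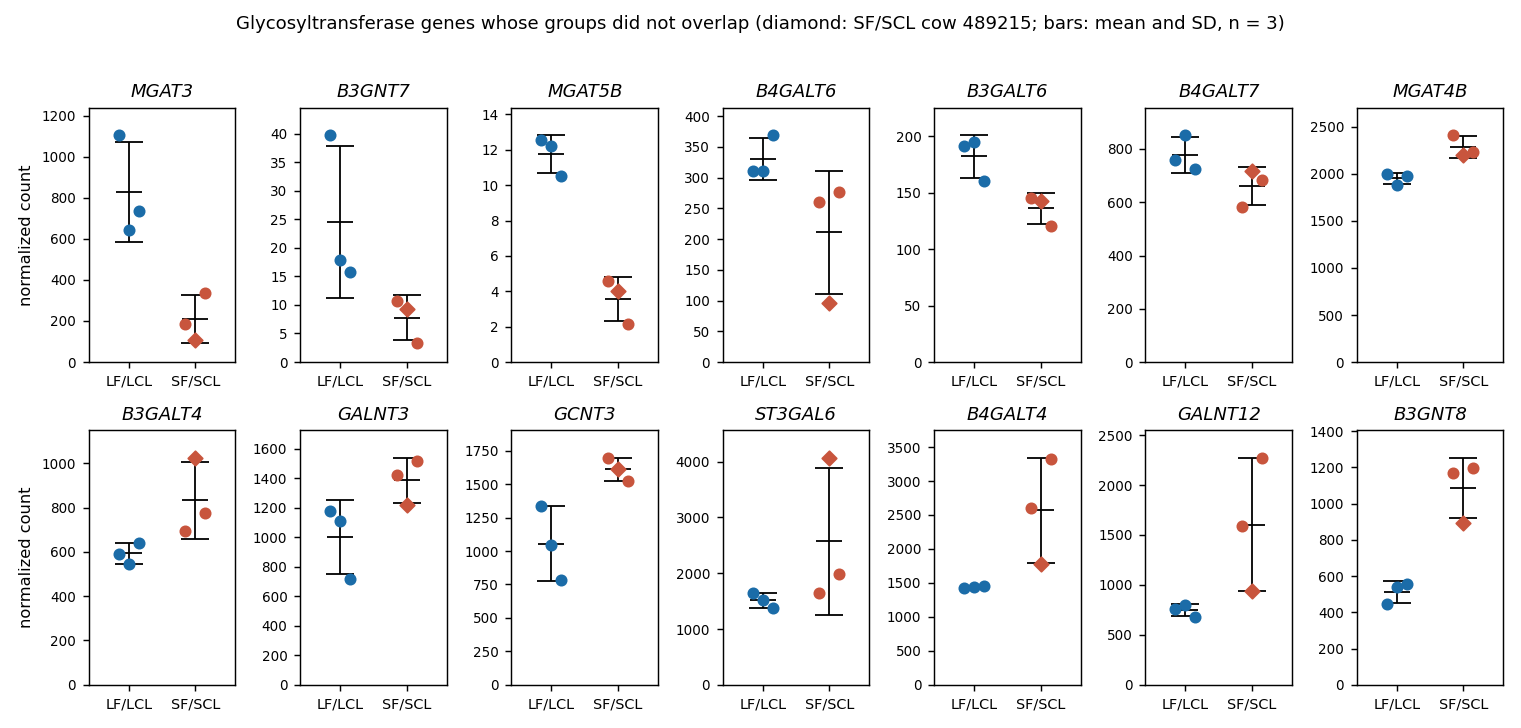
Normalized counts of the 14 glycosyltransferase genes whose groups did not overlap, with 1 point per cow, a diamond for SF/SCL cow 489215, and the mean and SD of each group (n = 3). The panels run from the lowest to the highest log2 fold change, from MGAT3 to B3GNT8. Every vertical axis starts at 0.

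The GALNT enzymes attach the first GalNAc of mucin-type O-glycans, and they differ in the peptides they prefer. GALNT12 had normalized counts of 758, 799 and 679 in LF/LCL and 1592, 939.9 and 2275 in SF/SCL. The SF/SCL cows were all higher and spread widely, with means of 745 ± 60.9 in LF/LCL and 1602 ± 668 in SF/SCL (SD, n = 3 each). The log2 fold change was 1.02 ± 0.34 (SE) and the adjusted p 0.465 in limma. GALNT3, whose product acts on FGF23 and on mucins, had normalized counts of 1176, 1109 and 715 in LF/LCL and 1421, 1221 and 1519 in SF/SCL. Here too the groups were apart, with a log2 fold change of 0.50 ± 0.25 (SE), but the gap between the closest cows of the 2 groups was small beside the spread within LF/LCL.

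GALNT11, the family member with the highest mean count, had values of 2489, 2541 and 2629 in LF/LCL and 2393, 3223 and 2100.3 in SF/SCL, and cow 489215 was the highest of all while the other SF/SCL cows were the lowest. GALNT10 had values of 1637, 1638 and 1112 in LF/LCL and 2102, 124 and 1537 in SF/SCL. The count in cow 489215 was far below the other 5, which ranged from 1112 to 2102. Its log2 fold change was -0.96 ± 1.03 (SE) with all cows and 0.32 ± 0.22 (SE) without this cow. GALNT5 had values of 8.37, 6.57 and 9.66 in LF/LCL and 142, 5.33 and 96.5 in SF/SCL and was not tested, because its SD exceeded its mean: cows 856 and 97 were high and cow 489215 was slightly below LF/LCL. The log2 fold changes of the 10 GALNT genes tested ranged from -0.96 for GALNT10 to 1.02 for GALNT12, with 5 above 0 (background 48.6%). Those of GALNT1, GALNT2, GALNT6, GALNT7, GALNT13 and GALNT15 ran from -0.50 to 0.56, and from -0.74 to 1.10 without cow 489215, with GALNT13 going from 0.12 ± 0.75 to -0.74 ± 0.31 (SE).

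The GCNT enzymes add GlcNAc branches to O-glycans (core 2 and, for GCNT3, core 4 as well) or, in the case of GCNT2, to the I antigen on poly-LacNAc chains. GCNT3, the enzyme found in mucus-secreting epithelia, had normalized counts of 1339.7, 1042 and 786 in LF/LCL and 1698, 1614 and 1525 in SF/SCL. All SF/SCL cows lay above all LF/LCL cows and close together, at means of 1056 ± 277 in LF/LCL and 1612 ± 86.4 in SF/SCL (SD, n = 3 each). The log2 fold change was 0.64 ± 0.23 (SE) with an adjusted p of 0.507 in limma, and it was nearly the same without cow 489215, at 0.64 ± 0.22 (SE, adjusted p 0.091). GCNT2 had values of 232, 185 and 173 in LF/LCL and 367, 41.3 and 241 in SF/SCL, lowest in cow 489215 and highest in cow 856. Its log2 fold change was -0.34 ± 0.79 (SE) with all cows and 0.60 ± 0.25 (SE) without cow 489215. GCNT1 and GCNT4, both core 2 enzymes, were at log2 fold changes of 0.26 ± 0.21 and -0.75 ± 0.52 (SE), and at 0.28 ± 0.16 and -0.26 ± 0.34 without that cow.

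The MGAT enzymes build the antennae of N-glycans. MGAT1 and MGAT2 open the way to hybrid and complex N-glycans, MGAT3 adds the bisecting GlcNAc, which limits further branching, and MGAT4 and MGAT5 enzymes add the outer branches. MGAT3 (ENSBTAG00000012503) showed the largest log2 fold change of the 60 genes in absolute size. Its normalized counts were 1107, 644 and 738 in LF/LCL and 186, 108 and 338 in SF/SCL. Every LF/LCL cow was above every SF/SCL cow, with means of 829.7 ± 245 in LF/LCL and 211 ± 117 in SF/SCL (SD, n = 3 each) and a ratio of LF/LCL to SF/SCL means of 3.94. The log2 fold change was -2.09 ± 0.46 (SE), with an adjusted p of 0.367 in limma and 0.00477 in DESeq2. Without cow 489215, which had the lowest count, limma gave -1.68 ± 0.32 (SE) and an adjusted p of 0.0182, and over all alternatives run the adjusted p went from 1.11e-05 to 0.999. The study lists MGAT3 and B3GNT8 among the isthmus genes it found on these same libraries, so their direction here is not independent evidence.

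MGAT5B, which acts mainly on O-mannosyl glycans of the brain, was at low counts but followed the same direction, with values of 12.6, 12.2 and 10.5 in LF/LCL and 4.56, 3.99 and 2.17 in SF/SCL and a log2 fold change of -1.52 ± 0.47 (SE, adjusted p 0.445 in limma). MGAT1, the family member with the highest mean count, had values of 3510.5, 3894 and 4100.1 in LF/LCL and 4365, 7058 and 3998 in SF/SCL, and cow 489215 held the highest of them. MGAT4B had values of 1996, 1887 and 1975 in LF/LCL and 2416, 2199 and 2231 in SF/SCL. The groups did not overlap, but the difference was small, with a log2 fold change of 0.22 ± 0.15 (SE). MGAT5, the enzyme of the beta-1,6 branch, had values of 999.6, 865 and 1126 in LF/LCL and 1034, 104 and 844 in SF/SCL. Only cow 489215 was low, and without it the log2 fold change went from -1.14 ± 0.85 to -0.09 ± 0.15 (SE). MGAT2, MGAT4A and MGAT4C had log2 fold changes from -0.42 to 0.13, and from -0.13 to 0.05 without cow 489215. In the N-glycan branching group 3 of 8 log2 fold changes were above 0 (background 48.6%).

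The B4GALT enzymes add beta-1,4-galactose, B4GALT1 to B4GALT4 mainly on GlcNAc to form LacNAc, B4GALT5 and B4GALT6 on glucosylceramide to form lactosylceramide, and B4GALT7 on the linker of proteoglycans. B4GALT4 had normalized counts of 1421, 1439 and 1453 in LF/LCL and 2597, 1780.0 and 3330.4 in SF/SCL. The LF/LCL cows agreed closely, at 1438 ± 15.7 (SD, n = 3), and all SF/SCL cows were higher, with cow 489215 the lowest of them. The log2 fold change was 0.79 ± 0.25 (SE) with an adjusted p of 0.454 in limma, and 1.03 ± 0.12 (SE) with 0.00459 without cow 489215. B4GALT6 had values of 311, 311 and 369.8 in LF/LCL and 259.8, 95.9 and 277 in SF/SCL, with the SF/SCL cows below the LF/LCL cows and cow 489215 far below all, and its log2 fold change of -0.79 ± 0.45 (SE) was -0.29 ± 0.16 (SE) without that cow. B4GALT7 had values of 759, 853 and 724 in LF/LCL and 580.3, 716 and 685 in SF/SCL and a log2 fold change of -0.24 ± 0.20 (SE), with the nearest cows of the 2 groups almost level. B4GALT1, which has the highest mean count of the family and is also known as a sperm surface receptor for egg coat sugars, had values of 5292, 4757 and 5987 in LF/LCL and 5615, 6119 and 6365 in SF/SCL that overlapped between the groups. For B4GALT2, B4GALT3 and B4GALT5 the log2 fold changes ran from -0.20 to 0.08, and without cow 489215 from -0.47 to 0.66.

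Among the B3GALT enzymes, B3GALT1, B3GALT2 and B3GALT5 form type 1 chains (galactose beta-1,3 on GlcNAc), B3GALT4 makes gangliosides, and B3GALT6 acts on the proteoglycan linker. B3GALT4 had values of 592, 546 and 641 in LF/LCL and 695, 1025 and 775 in SF/SCL, higher in all SF/SCL cows and highest in cow 489215, with a log2 fold change of 0.47 ± 0.22 (SE) that was 0.31 ± 0.13 without it. B3GALT6 had values of 192, 195 and 161 in LF/LCL and 146, 142 and 120.3 in SF/SCL, lower in all SF/SCL cows, with a log2 fold change of -0.42 ± 0.27 (SE). B3GALT6 and B4GALT7, the pair of linker enzymes in the rule, were thus both above in LF/LCL by less than 1 on the log2 scale, and neither passed the test. B3GALT5 had values of 62.8, 54.4 and 89.6 in LF/LCL and 150.4, 12.0 and 177 in SF/SCL. The cows 856 and 97 were above every LF/LCL cow, and cow 489215 was below every LF/LCL cow. B3GALT1 and B3GALT2 were at log2 fold changes of 0.20 ± 0.75 and -0.71 ± 0.42 (SE), and at 0.98 ± 0.46 and -0.96 ± 0.38 without cow 489215.

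The B3GNT enzymes other than B3GNT1, whose symbol is an older one, add GlcNAc in beta-1,3 linkage. B3GNT2 and B3GNT8 extend poly-LacNAc chains, B3GNT3 extends core 1 O-glycans, B3GNT5 starts the lacto-series glycolipids, B3GNT6 makes core 3 and B3GNT7 takes part in keratan sulfate. B3GNT8 (ENSBTAG00000016041) had normalized counts of 445, 542 and 554 in LF/LCL and 1171, 893 and 1194 in SF/SCL. The lowest SF/SCL cow, 489215, was well above the highest LF/LCL cow, the means were 514 ± 59.8 in LF/LCL and 1086 ± 168 in SF/SCL (SD, n = 3 each), and the ratio of SF/SCL to LF/LCL means was 2.12. The log2 fold change was 1.07 ± 0.22 (SE) with an adjusted p of 0.367 in limma and 0.000922 in DESeq2, and without cow 489215 limma gave 1.21 ± 0.14 (SE) and 0.00395. Over all alternatives run the adjusted p of B3GNT8 went from 1.58e-11 to 0.999.

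B3GNT7 had values of 39.8, 17.8 and 15.8 in LF/LCL and 10.6, 9.32 and 3.25 in SF/SCL, at low counts and with 1 LF/LCL cow well above the others, and a log2 fold change of -1.55 ± 0.61 (SE, adjusted p 0.55 in limma). B3GNT2, the family member with the highest mean count, had values of 1502, 1528 and 1399 in LF/LCL and 1149, 1780.0 and 972 in SF/SCL. The cows 856 and 97 were the lowest and cow 489215 was the highest. B3GNT6 was at the edge of detection, with values of 1.05, 14.1 and 8.78 in LF/LCL and 6.84, 0 and 3.25 in SF/SCL, and no reads in cow 489215, where 0 reads leaves room for up to 3 reads or a normalized count of 3.99 from counting error alone. B3GNT1, B3GNT3, B3GNT4 and B3GNT5 had log2 fold changes from -0.22 to 0.57, and from -0.57 to 0.91 without cow 489215. As a family, 4 of the 8 B3GNT genes had log2 fold changes above 0 (background 48.6%), and the B3GNT genes at the ends of the range were B3GNT8 and B3GNT7.

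The FUT enzymes add fucose: FUT1 and FUT2 make the alpha-1,2 H antigen, FUT4, FUT7 and FUT9 make Lewis x or sialyl Lewis x structures, and FUT8 adds the core fucose of N-glycans. FUT10 had values of 885, 849 and 1032 in LF/LCL and 939, 699 and 781 in SF/SCL and the highest mean count of the family, without separation of the groups. FUT1 had values of 23.0, 31.0 and 29.9 in LF/LCL and 63.0, 26.6 and 98.6 in SF/SCL. Cows 856 and 97 stood above all LF/LCL cows and cow 489215 among them, and the log2 fold change was 0.96 ± 0.54 (SE, adjusted p 0.711 in limma). FUT8 had values of 716, 692 and 757 in LF/LCL and 412, 729.6 and 505 in SF/SCL. Cows 856 and 97 were below all LF/LCL cows and cow 489215 was again among them, with a log2 fold change of -0.43 ± 0.26 (SE). FUT2 had values of 81.6, 38.5 and 32.5 in LF/LCL and 40.3, 117 and 13.0 in SF/SCL, highest in cow 489215 and lowest in cow 97, and its log2 fold change went from -0.23 ± 0.83 to -0.99 ± 0.62 (SE) without cow 489215. Of the 7 FUT genes tested, 6 had log2 fold changes below 0 in limma (background 48.6% above 0), with a median of -0.23. Those of FUT2 and FUT4 were 0.15 and 0.03 in DESeq2, and 0 of the 7 reached an unadjusted p under 0.05 in limma (background 8.66%). Without cow 489215, 4 of the 7 were below 0 (background 49.9% above 0), with a median of -0.10, and FUT4 and FUT11 were above 0. For FUT4, FUT7, FUT10 and FUT11 the log2 fold changes ran from -0.82 to -0.02 with all cows and from -0.79 to 0.20 without this cow.

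The ST3GAL enzymes place alpha-2,3-linked sialic acid, ST3GAL1 on core 1 O-glycans, ST3GAL5 on lactosylceramide to form the ganglioside GM3, and ST3GAL6 on type 2 chains. All 3 genes had log2 fold changes above 0 with the 6 libraries (background 48.6%), though not through the same cows. That of ST3GAL1 was -0.42 without cow 856 and -0.48 without cow 97. ST3GAL6 had normalized counts of 1641, 1525 and 1371 in LF/LCL and 1646, 4073 and 1989.8 in SF/SCL. Cow 489215 was far the highest, and cow 856 exceeded LF/LCL cow 617 by a few counts only. ST3GAL1 had values of 278, 293 and 226 in LF/LCL and 634, 55.9 and 684 in SF/SCL, and ST3GAL5 had values of 274, 279 and 318 in LF/LCL and 706, 157 and 791 in SF/SCL. In both genes cows 856 and 97 were above all LF/LCL cows, by more than the range within LF/LCL, and cow 489215 was below them all. The log2 fold changes with all cows were 0.65 ± 0.35 for ST3GAL6, 0.14 ± 0.95 for ST3GAL1 and 0.62 ± 0.62 for ST3GAL5 (SE), with adjusted p of 0.684, 0.977 and 0.861 in limma. Without cow 489215 they were 0.26 ± 0.13, 1.32 ± 0.17 and 1.36 ± 0.14, with adjusted p of 0.201, 0.00543 and 0.00344.

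ST6GAL1 and ST6GAL2 place alpha-2,6-sialic acid on LacNAc, and the ST6GALNAC enzymes place it on GalNAc of O-glycans or, for ST6GALNAC5 and ST6GALNAC6, on gangliosides. ST6GAL1 had values of 185, 244 and 366 in LF/LCL and 354, 45.3 and 290.4 in SF/SCL. Cow 489215 was the only one clearly apart, and the log2 fold change of -0.60 ± 0.80 (SE) became 0.33 ± 0.30 without it. ST6GALNAC6, with the highest mean count of its family, had values of 1475, 1185 and 1282 in LF/LCL and 2368, 904 and 2850.3 in SF/SCL, with cows 856 and 97 above and cow 489215 below all LF/LCL cows. ST6GAL2 had values of 12.6, 22.5 and 16.7 in LF/LCL and 44.1, 3.99 and 157 in SF/SCL and was not tested because its SD exceeded its mean, with cow 97 high and cow 489215 the lowest. ST6GALNAC2 and ST6GALNAC5 were at log2 fold changes of 0.13 ± 0.30 and -0.37 ± 0.46 (SE), and at -0.18 ± 0.14 and -0.59 ± 0.50 without cow 489215.

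The ST8SIA enzymes add alpha-2,8-sialic acid, ST8SIA1 and ST8SIA5 on gangliosides and ST8SIA2 and ST8SIA4 as polysialic acid chains. ST8SIA4, the member with the highest mean count, had values of 3835, 3082 and 2919 in LF/LCL and 3246, 1472 and 4249 in SF/SCL, lowest in cow 489215. ST8SIA1 and ST8SIA2 were low, with values of 3.14, 7.51 and 3.51 in LF/LCL and 15.2, 0 and 16.3 in SF/SCL for the former and 11.5, 12.2 and 7.91 in LF/LCL and 6.08, 0 and 8.67 in SF/SCL for the latter, and neither had a read in cow 489215. ST8SIA5 had values of 283, 176 and 239 in LF/LCL and 586, 113 and 442 in SF/SCL. The cows 856 and 97 were above all LF/LCL cows and cow 489215 was below them.

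The normalized counts were summed over the genes of each of 10 steps. This weights the genes with the most reads, so a sum does not show whether the genes of a step moved together. The groups did not overlap in 5 of the 10 sums, with 4 higher in SF/SCL and 1 higher in LF/LCL. These sums are given as a description without a test, and the share for sums of other genes was not taken. As shares of all reads of the library, 1 step remained higher in all SF/SCL cows, alpha-2,3-sialylation, and 1 in all LF/LCL cows, fucosylation. The separation ended for core and I branching, beta-1,4-galactosylation and alpha-2,6-sialylation, and for the last also with TMM scaling, in each case through cow 489215. The sum of the 3 alpha-2,3-sialyltransferase genes was 2194, 2097 and 1915 in LF/LCL and 2987, 4286 and 3465 in SF/SCL. In cow 489215 it consisted mostly of ST3GAL6, while ST3GAL1 and ST3GAL5 were lowest in that cow. The core and I branching genes summed to 2109, 1802 and 1439.6 in LF/LCL and 2776, 2221 and 2317 in SF/SCL. The alpha-2,6-sialyltransferase genes summed to 3323, 2667 and 3137 in LF/LCL and 4009, 3363 and 4576 in SF/SCL, with the lowest SF/SCL cow, 489215, just above the highest LF/LCL cow. The beta-1,4-galactosyltransferase genes also had all SF/SCL sums above all LF/LCL sums. Fucosyltransferase genes were the step with lower sums in SF/SCL, at 2197, 2233 and 2444 in LF/LCL and 2079, 1877 and 2010.4 in SF/SCL. The gap was small as shares of all reads, where cow 856 was just below cow 617. No FUT gene separated the groups in normalized counts, and the genes that were low differed between the cows. FUT8 was below all LF/LCL cows in cows 856 and 97, at 412 and 505, but not in cow 489215, at 729.6. FUT10 and FUT11 were lowest in cow 489215, at 699 and 128, and FUT10 was also below LF/LCL in cow 97, at 781. The alpha-2,8-sialyltransferase genes, at 4133, 3279 and 3169 in LF/LCL and 3853, 1587 and 4717 in SF/SCL, overlapped between the groups, with cow 489215 the lowest and LF/LCL cow 617 above SF/SCL cow 856. Summed over all 69 genes, the counts were 52718, 49903 and 50276 in LF/LCL and 58826, 53667 and 60460.3 in SF/SCL, higher in each SF/SCL cow than in any LF/LCL cow, with the gap between cow 489215 and cow 617 the smallest. With TMM scaling the groups overlapped in this sum, since cow 489215, at 52880.5, was below cow 617, at 53200.3. As shares of all reads, cows 856 and 97 stayed above LF/LCL, at 0.226% and 0.233% against 0.186% to 0.196%, but cow 489215 was the lowest of all, at 0.158%.

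**Figure D3:**
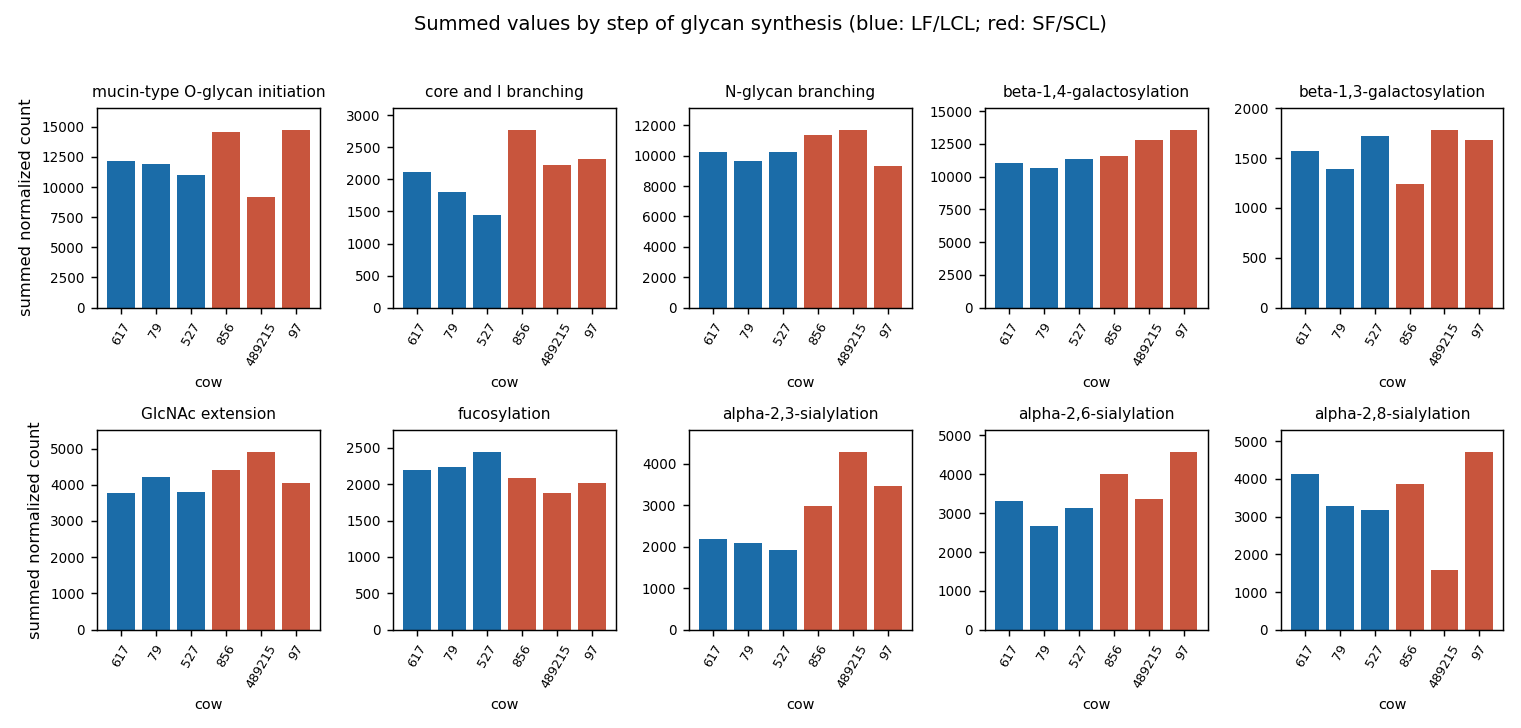
Summed normalized counts of the glycosyltransferase genes of each step in glycan synthesis, with 1 bar per cow, blue for LF/LCL and red for SF/SCL, and each vertical axis starting at 0. The alpha-2,3-sialylation bars of the 3 SF/SCL cows, 2987 to 4286, all exceed the LF/LCL bars, 1915 to 2194. Cow 489215 has the lowest bar for mucin-type O-glycan initiation, for fucosylation and for alpha-2,8-sialylation. Of the step sums that separate the groups here, 2 also do so as shares of all reads.

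Without cow 489215 the comparison set cows 856 and 97 against the 3 LF/LCL cows, and the median residual SD over the 60 genes was 0.22 in place of 0.523. In this comparison limma called 15 of the 60 glycosyltransferase genes at an adjusted p under 0.05, against 18.2% of the 15495 genes then tested. Of these, 12 were higher in SF/SCL (background 10.3%) and 3 were higher in LF/LCL (background 7.92%). At an unadjusted p under 0.05 there were 27 (background 33.9%), 19 higher in SF/SCL (background 18.0%) and 8 higher in LF/LCL (background 15.9%), and 33 log2 fold changes were above 0 (background 49.9%). The values of the groups did not overlap in 36 genes (background 52.0%), with SF/SCL higher in 21 (background 27.1%) and LF/LCL higher in 15 (background 24.9%). The same 15 genes were called by edgeR (background 17.9%) and by DESeq2, which called 17 in all (background 25.4%). Leaving out any other cow left 0 calls among the members in limma. The genes of this comparison were named after their values had been seen.

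The 12 genes higher in SF/SCL cows 856 and 97 came from all steps of capping and extension and from O-glycan initiation. They were GALNT6 and GALNT12, B4GALT4 and B4GALT5, B3GALT5, B3GNT5 and B3GNT8, FUT1, ST3GAL1 and ST3GAL5, ST6GALNAC6 and ST8SIA5. Among them ST3GAL5 had the smallest adjusted p, 0.00344, in limma with Benjamini-Hochberg adjustment, at a log2 fold change of 1.36 ± 0.14 (SE), and FUT1 had the highest log2 fold change, 1.48 ± 0.36 (SE, adjusted p 0.0374). GALNT12 was at 1.35 ± 0.17 (SE), ST3GAL1 at 1.32 ± 0.17, B3GALT5 at 1.26 ± 0.30, ST8SIA5 at 1.15 ± 0.25, GALNT6 at 1.10 ± 0.18 and ST6GALNAC6 at 0.99 ± 0.13. B4GALT4 and B3GNT8 are given above, B4GALT5 was at 0.66 ± 0.16 (SE) and B3GNT5 at 0.74 ± 0.19. The 3 genes higher in LF/LCL were MGAT3, FUT8 (log2 fold change -0.66 ± 0.14, SE, adjusted p 0.0227) and B3GNT2 (-0.48 ± 0.11, SE, adjusted p 0.0327 in limma). In the same comparison 10 of the 12 tested markers of ciliated epithelium and 6 of the 11 of epithelium in general were called higher in SF/SCL (background 10.3%). Of the smooth muscle markers 7 of 9, and of the fibroblast markers 5 of 8, were called higher in LF/LCL (background 7.92%), with 1 fibroblast marker, CFD, called higher in SF/SCL. Their part in the values of the glycosyltransferase genes was not tested.

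Of the 15 genes, 4 also had groups that did not overlap with all 6 cows, namely GALNT12, B4GALT4, B3GNT8 and MGAT3. In the other 11 the library of cow 489215 was within the range of LF/LCL or on its far side, and it was the lowest of all 6 in 9 of the 15. The 15 genes were picked by a fit without this cow, so its place in them follows in part from that choice. Over all genes tested this cow was the lowest in 35.7% and the highest or lowest in 72.4%. The sign of the log2 fold change differed between the fits with and without this cow in 13 of the 60 genes. The shares of all genes that go with these counts were not taken, so they are not read as traits of the glycosyltransferase genes.

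**Figure D4:**
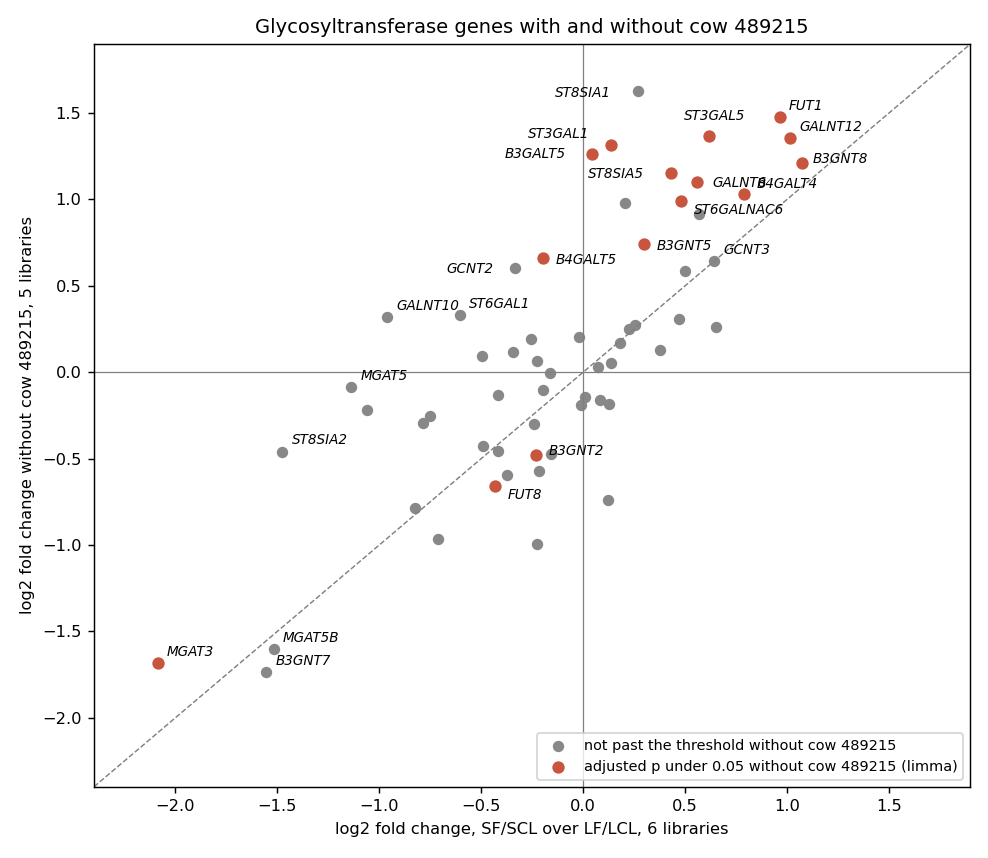
Log2 fold change (SF/SCL over LF/LCL) of the 60 tested glycosyltransferase genes with all 6 libraries (horizontal axis) and without cow 489215 (vertical axis), with the dashed line marking equal values. Red points are the 15 genes with an adjusted p under 0.05 in limma without this cow. MGAT3 and B3GNT8 lie near the line, while GALNT10, ST6GAL1 and GCNT2 change sign.

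Cow 489215 differed from the other 5 cows mostly by low values in the glycosyltransferase genes. It was the lowest of the 6 in 26 of the 60 genes (background 35.7%) and the highest in 14 (background 36.7%), 40 in all against 72.4% of all genes. The number of genes in which a cow was highest or lowest was 8 for cow 617 (background 15.6%), 12 for cow 79 (19.3%), 14 for cow 527 (25.9%), 19 for cow 856 (38.0%) and 27 for cow 97 (28.7%). The log2 value of cow 489215 was at least 1 below the mean of the other 5 cows in 19 genes (background 22.7%) and at least 1 above it in 3 genes, FUT2, GALNT13 and ST3GAL6 (background 11.9%). The differences are given as a description without a test, since this cow is a single library. GALNT10 was at -3.66 on the log2 scale, MGAT5 at -3.21, B3GALT5 at -2.90, ST3GAL1 at -2.75, ST6GAL1 at -2.60, GCNT2 at -2.46 and MGAT3 at -2.22. ST8SIA2 at -3.32, ST8SIA1 at -3.09 and B3GNT6 at -2.66 had no reads in this library, so that their differences depend on the pseudocount. The highest difference was that of GALNT13, a GALNT of neural tissue, at 2.13, with values of 97.3, 63.8 and 95.7 in LF/LCL and 52.4, 304 and 47.7 in SF/SCL. Beside these differences, the smooth muscle markers were at their highest sum in this library and the ciliated markers at their lowest, while its general epithelial markers were at their highest sum. Not every marker followed its sum. Of the 9 smooth muscle markers, 5 were highest in this cow and 1, SYNPO2, was lowest. Of the 13 ciliated markers, 6 were lowest in it and 0 highest. Of the 11 general epithelial markers, 8 were highest in it and 2, GRHL2 and ESRP2, were lowest.

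**Figure D5:**
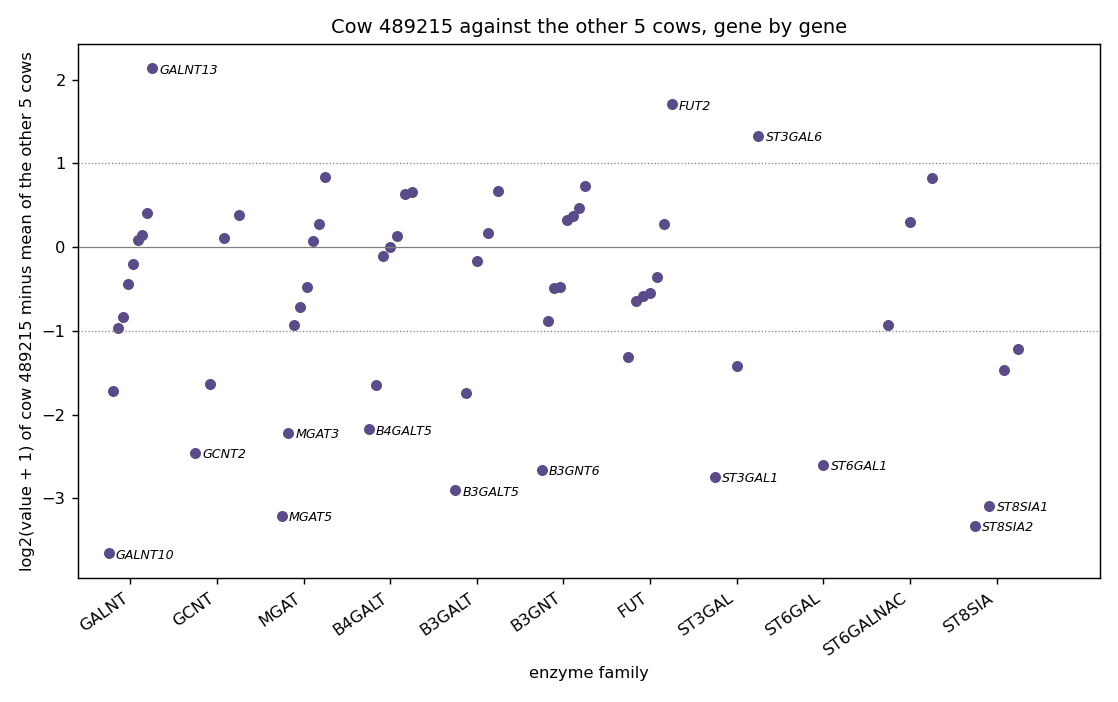
Difference between cow 489215 and the mean of the other 5 cows in log2(normalized count + 1) for the 60 tested glycosyltransferase genes, by family, with 1 point per gene and dotted lines at -1 and 1. The points reach from -3.66 for GALNT10 to 2.13 for GALNT13, with 19 genes at or below -1 and 3 at or above 1.

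The 9 genes not tested were FUT9, GALNT8, GALNT14, GCNT7, ST6GALNAC1, ST8SIA3 and ST8SIA6, with means of 5 or less, and GALNT5 and ST6GAL2. ST8SIA3 was at 0 reads in all 6 libraries, which leaves room for normalized counts of up to 2.28 to 3.99 per library from counting error. FUT9, the Lewis x enzyme, had a single library above 0, LF/LCL cow 527, at 0.878. GCNT7 had values of 5.23, 2.82 and 1.76 in LF/LCL and 3.04, 0 and 11.9 in SF/SCL.

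The other genes that feed or complete these chains were taken from lists chosen by function and read from the same fits. Over the 83 tested genes of the 6 lists, limma and edgeR called 0 with all cows. DESeq2 called 3 (background 2.66%), UGT8 and MAN1C1 lower and MUC4 higher in SF/SCL. Among 25 tested genes of sugar nucleotide supply and transport, limma called 0 with all cows. At an unadjusted p under 0.05 it gave 2 higher in SF/SCL (background 4.19%) and 1 higher in LF/LCL (background 4.48%). SLC35A1, the Golgi carrier of CMP-sialic acid, had values of 1826, 1390.1 and 1489 in LF/LCL and 2128, 3719.8 and 2254 in SF/SCL, higher in all SF/SCL cows (log2 fold change 0.75 ± 0.26, SE, adjusted p 0.496 in limma), and at a log2 fold change of 0.49 ± 0.13 (SE) without cow 489215. SLC35C1, the Golgi carrier of GDP-fucose, had values of 583, 505 and 363 in LF/LCL and 297, 259.6 and 236 in SF/SCL, lower in all SF/SCL cows (log2 fold change -0.85 ± 0.27, SE, adjusted p 0.448 in limma). GALK2, the GalNAc kinase, had values of 1080.2, 985 and 831 in LF/LCL and 1569, 1196 and 1407 in SF/SCL, higher in all SF/SCL cows. UAP1, which makes UDP-GlcNAc and has the highest mean count of the list, had 5862, 5360.5 and 4484 in LF/LCL and 5402, 7649 and 5351 in SF/SCL.

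Among 24 tested glycosyltransferase genes outside the rule, limma called 0, with 18 log2 fold changes below 0 and 6 above 0 (background 48.6% above 0). At an unadjusted p under 0.05 in limma, 2 genes were lower in SF/SCL (background 4.48%). B4GALNT2, which makes the Sda antigen on alpha-2,3-sialylated chains, had values of 119, 131 and 59.7 in LF/LCL and 0.76, 42.6 and 1.08 in SF/SCL. Its counts were close to 0 in SF/SCL cows 856 and 97, between these and LF/LCL in cow 489215, and the log2 fold change was -4.19 ± 1.26 (SE, adjusted p 0.437 in limma). Each of cows 856 and 97 had 1 read for it, so this fold change depends on the pseudocount. UGT8, the galactosylceramide synthase, had values of 118, 95.7 and 157 in LF/LCL and 25.8, 59.9 and 15.2 in SF/SCL, also lower in all SF/SCL cows (log2 fold change -2.04 ± 0.55, SE, adjusted p 0.405). OGT, the list member with the highest mean count, had values of 5399.7, 7667 and 11660.0 in LF/LCL and 7928, 5321 and 8839 in SF/SCL. Without cow 489215 limma called B4GALNT2, UGT8 and GALNTL4 lower (background 7.92%) and GGTA1 and B4GALNT4 higher (background 10.3%) in SF/SCL. GGTA1, the alpha-gal enzyme, had values of 2359, 2159.8 and 2100.1 in LF/LCL and 4220.2, 1239.5 and 4345 in SF/SCL.

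Among the 11 genes of N-glycan trimming limma called 0, while DESeq2 called MAN1C1. At an unadjusted p under 0.05 in limma, 2 were lower in SF/SCL (background 4.48%). These were the Golgi mannosidases MAN1C1, with values of 622, 843 and 726 in LF/LCL and 398, 305 and 326 in SF/SCL, and MAN2A1, with values of 1241, 1774 and 1928 in LF/LCL and 1082, 904 and 1076 in SF/SCL, and in both genes all LF/LCL cows were above all SF/SCL cows. MAN2A1 acts right after MGAT1 in the same pathway. GANAB, with the highest mean count of the list, had values of 7642, 7918 and 8393 in LF/LCL and 8085, 8061 and 8809 in SF/SCL. Of 11 tested glycosidase genes, GLB1, the lysosomal beta-galactosidase, was the one with an unadjusted p under 0.05 in limma (background 8.66%). Its values were 1433, 1585 and 1456 in LF/LCL and 5711, 1599 and 3529 in SF/SCL. FUCA1 had the highest mean count, with values of 6194, 6364 and 5954 in LF/LCL and 4077, 9205 and 5007 in SF/SCL.

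Among the carriers of these glycans, 7 mucin and related genes were tested, with 0 called by limma with all cows. At an unadjusted p under 0.05 in limma, 3 were higher in SF/SCL (background 4.19%) and 1 was higher in LF/LCL (background 4.48%). MUC4 had values of 158, 71.3 and 93.1 in LF/LCL and 285, 639 and 246 in SF/SCL (log2 fold change 1.79 ± 0.49, SE, adjusted p 0.405 in limma), higher in all SF/SCL cows and highest in cow 489215. MUC20, with values of 300.4, 214 and 178 in LF/LCL and 359, 587 and 351 in SF/SCL, and MUC1, with values of 2866, 1639 and 1946 in LF/LCL and 2782, 6421 and 3287 in SF/SCL, were highest in the same cow, and MUC1 overlapped between the groups. MUC5B, a gel-forming mucin, ran the other way, with values of 59.7, 74.2 and 60.6 in LF/LCL and 2.28, 38.6 and 10.8 in SF/SCL. OVGP1, MUC16 and MUC12 were not tested because their SD exceeded their mean. OVGP1 had values of 287, 1782 and 1949.9 in LF/LCL and 271794, 729.6 and 325158 in SF/SCL. MUC16 was higher in all SF/SCL cows, at 271, 268 and 359 in LF/LCL and 4052, 470 and 6906 in SF/SCL. MUC12 had values of 0, 0.939 and 0 in LF/LCL and 653, 0 and 631 in SF/SCL. GLYCAM1 was listed at 0 in all libraries. Of 5 tested galectin genes, lectins that bind beta-galactosides, LGALS9 was higher in all SF/SCL cows, with values of 1196, 1348 and 1282 in LF/LCL and 2568, 1531 and 1889 in SF/SCL (log2 fold change 0.61 ± 0.23, SE, adjusted p 0.514 in limma), and LGALS1 had the highest mean count, with values of 11425, 9580.5 and 8751 in LF/LCL and 2986, 18345 and 4495 in SF/SCL. LGALS12 was listed at 0 in all libraries, and LGALS3 stood on a row at 0 and on another with reads, at 1594 to 7824. Without cow 489215 limma called 1 galectin gene higher (background 10.3%) and 3 lower (background 7.92%) in SF/SCL, and LGALS1, LGALS3 and LGALS4 were the 3 lower ones.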

How the data were processed

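The authors prepared poly(A) libraries, filtered the reads, aligned them to the bovine assembly UMD 3.1 with TopHat2 2.0.8 and Bowtie2 2.1.0, counted uniquely mapped reads per gene with HTSeq 0.5.4p2 and divided them by DESeq 1.12.1 size factors (versions also from the submitters' processing notes). The deposited signal values are these normalized counts, and whether counting used the strand is not given in the sources used here. All 147696 values were whole multiples of the value of 1 read (tolerance 0.05 reads), which gave back the reads. The 15387 genes whose mean exceeded both 5 and their own SD across the libraries were tested with limma 3.58.1 (lmFit, eBayes with trend and robust) in R 4.3.3 on log2(value + 1), SF/SCL against LF/LCL without covariates, with Benjamini-Hochberg adjustment over all genes tested and a threshold of 0.05. Each cow gave 1 library, so p-values measure the spread between cows. edgeR 4.0.16 and DESeq2 1.42.0 on the recovered reads, other pseudocounts, filters and scalings, and leaving out each cow were alternatives, and scaling by the total reads of each library was added after the data had been seen. The methods were tested on simulated data, and limits from 0 reads (3 reads) cover counting error only. Tables and plots used Python 3.11.15, pandas 2.3.3 and matplotlib 3.10.9. Of the 69 symbols, 66 were found among the RefSeq names of the assembly used for names, which differs from UMD 3.1, so no positions are given. B3GNT1 is an older symbol, now B4GAT1 in other tables, kept as deposited. It was counted among the B3GNT genes and in the step of GlcNAc extension by its name alone. Genes named in the text were the member with the highest mean count of each family, those whose groups did not overlap, those with an unadjusted p under 0.05, the 10 with the largest absolute log2 fold change, the 10 farthest from the other cows in cow 489215, and MGAT3 and B3GNT8. From other lists they were at most 4 genes with an unadjusted p under 0.05 and the gene with the highest mean count. Further genes were named after their values had been seen. The members and lists were chosen with earlier results of these data known. The ampulla libraries were not analysed here.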

Additional observations from a re-analysis of the deposited data

How the results depend on the processing

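The number of glycosyltransferase genes with an adjusted p under 0.05, 0 in limma with 6 libraries, was 2 in DESeq2 (background 2.66%). It was 0 to 15 in limma when a cow was left out, with 15 only without SF/SCL cow 489215 (background 18.2%). Without that cow edgeR gave 15 (background 17.9%) and DESeq2 17 (background 25.4%). The 4 genes higher in SF/SCL at an unadjusted p under 0.05 became 1 to 19 when a cow was left out (1 without LF/LCL cow 527 or SF/SCL cow 97). Without cow 489215 they were 19 in limma (background 18.0%), 18 in edgeR (17.9%) and 17 in DESeq2 (17.7%). The 3 genes higher in LF/LCL became 1 to 8 (1 without cow 79 or cow 97). Without cow 489215 they were 8 in limma (background 15.9%), 7 in edgeR (15.8%) and 8 in DESeq2 (16.8%). Groups that did not overlap with SF/SCL higher numbered 8 (background 9.51%), and 9 to 21 when a cow was left out, with 21 without cow 489215 (background 27.1%). With LF/LCL higher they numbered 6 (background 8.6%), and 7 to 15, with 10 without cow 856 and 15 without cow 489215 (background 24.9%). For the other cows left out the shares over all genes were not taken, so those counts cannot be set against a background. Fewer cows make groups overlap less often by construction. The 28 genes with log2 fold changes above 0 stayed within 24 to 34 in all alternatives run. Pseudocounts, filters, TMM rescaling and the variance estimate moved none of the other counts in limma. Scaling by library totals, an alternative chosen after seeing the data, left 0 genes called, 1 higher in SF/SCL at an unadjusted p under 0.05, and 3 without overlap and higher in SF/SCL, and moved the median log2 fold change of all genes from -0.02 to -0.10 and that of the members from -0.09 to -0.18.

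Signs turned in 8 of the 31 genes named by the rule, all without a call with 6 libraries, and the cause was not tested beyond the cow left out. Without cow 489215, log2 fold changes in limma, edgeR and DESeq2 were 0.32, 0.31 and 0.31 for GALNT10 (-0.96 with all cows), 0.33, 0.28 and 0.27 for ST6GAL1 (-0.60), 0.19, 0.19 and 0.18 for ST8SIA4 (-0.25), and 0.60, 0.63 and 0.62 for GCNT2 (-0.34), which was also 0.13 in edgeR with TMM, 0.14 in edgeR with DESeq2 size factors and 0.14 in DESeq2 with all cows. B3GALT5 (0.04) was -0.040 with library totals, and GALNT11 (-0.01) was 0.0106 in edgeR with DESeq2 size factors and 0.0104 in DESeq2. With a cow left out the ranges were -0.63 to 1.26 for B3GALT5, -0.19 to 0.12 for GALNT11, -1.72 to 0.32 for GALNT10, -0.96 to 0.60 for GCNT2, -0.48 to 1.32 for ST3GAL1, -1.14 to 0.33 for ST6GAL1, -0.43 to 1.63 for ST8SIA1 (5 fits, since it failed the filter in the other) and -0.57 to 0.19 for ST8SIA4. No paired analysis was possible because the cow numbers of the groups are not shared. Of the tested genes 5 had a mean normalized count under 15, and the tests without cow 489215 rest on 2 SF/SCL cows, with filters applied anew.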
